A study of Mus musculus with 6 samples.

Results

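A set of 52 mouse genes that encode the machinery of DNA replication was followed in colorectal tissue, from the proteins that mark and license origins to those that work at the moving fork. Members were chosen by symbol, as the subunits and partners of the MCM, GINS, ORC, polymerase, RFC and RPA complexes, and all 52 were found among the 18268 genes of the expression table. RNA sequencing had been performed on colorectal tissue of adult male C57BL/6 mice, a common inbred laboratory strain. Colitis had been induced in all 6 mice with dextran sulfate sodium (DSS), a sulfated polymer that damages the lining of the large bowel when it is drunk with water, for 7 days. By gavage, 3 mice received berberine (BBR), a plant alkaloid, and the other 3 received sulfasalazine (SASP), an established drug against ulcerative colitis, each for 6 days. The labels give no dose. Normal mice, colitis mice without a drug and normal mice given a drug were not analysed here, so each value compares BBR with SASP in inflamed tissue and gives no direction against an untreated state.

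Before a cell copies its DNA, the origin recognition complex (ORC) binds origins, and Cdc6 and Cdt1 load onto them a ring of 6 related proteins, Mcm2 to Mcm7, which is the core of the replicative helicase. In S phase, Cdc45 and GINS join this ring to form the active helicase, and polymerases alpha, delta and epsilon copy both strands with the help of the clamp loader RFC, the sliding clamp PCNA and the single-strand binding protein RPA. In the gut, dividing cells sit mainly at the base of the crypts, and lymphoid and stromal cells can divide as well, so the RNA of these genes in bulk tissue is often read as a sign of cycling cells. Fewer cycling cells and less of these RNAs per cell cannot be told apart in such samples.

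Many replication genes carry sites for E2F, a family of transcription factors known for switching on genes at the start of S phase, so the promoter letters of members were searched. The windows were those of RefSeq on build GRCm38.p6, from 250 bases before to 50 bases after each annotated start, and 44 of the 52 members had one. The E2F letters searched were TTTCCCGC, TTTGGCGC, TTTCGCGC and TTTGCCGC on both strands, where matches may overlap each other. They were found in 16 of these 44 members (36.4%), against 442 of 9616 tested genes with a window (4.60%) and 744 of all 32851 windows (2.26%). The following 5 stretches show 4 genes whose levels were lower in every BBR mouse than in every SASP mouse (Mcm5, Mcm6, Gins3 and Rfc3) and 1 ORC subunit whose levels overlapped between the groups (Orc3). Only stretches that hold a match were chosen for display. Of these 5 genes, only Rfc3 passed the expression test described below. Capitals mark the matches, each stretch runs 5′ to 3′ on the strand of its gene, and it ends just before the outermost annotated start.
Mcm5 promoter, chr8:75109309-75109467, plus strand: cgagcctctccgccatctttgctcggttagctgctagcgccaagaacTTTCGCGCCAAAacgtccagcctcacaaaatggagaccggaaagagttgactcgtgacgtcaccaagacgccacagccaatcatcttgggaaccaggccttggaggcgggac
Mcm6 promoter, chr1:128359706-128359905, minus strand: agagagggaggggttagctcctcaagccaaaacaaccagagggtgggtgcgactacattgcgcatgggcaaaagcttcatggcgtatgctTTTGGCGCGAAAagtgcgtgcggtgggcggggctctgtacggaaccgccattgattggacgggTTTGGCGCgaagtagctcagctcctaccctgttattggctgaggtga
Gins3 promoter, chr8:95633359-95633558, plus strand: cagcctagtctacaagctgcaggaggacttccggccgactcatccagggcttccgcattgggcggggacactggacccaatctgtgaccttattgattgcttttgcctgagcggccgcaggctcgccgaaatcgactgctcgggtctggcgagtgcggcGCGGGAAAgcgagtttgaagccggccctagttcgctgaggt
Rfc3 promoter, chr5:151651209-151651408, minus strand: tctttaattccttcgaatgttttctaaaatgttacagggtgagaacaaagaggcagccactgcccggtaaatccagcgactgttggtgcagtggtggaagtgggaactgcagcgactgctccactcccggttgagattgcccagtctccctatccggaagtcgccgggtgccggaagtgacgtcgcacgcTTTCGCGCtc
Orc3 promoter, chr4:34614964-34615142, minus strand: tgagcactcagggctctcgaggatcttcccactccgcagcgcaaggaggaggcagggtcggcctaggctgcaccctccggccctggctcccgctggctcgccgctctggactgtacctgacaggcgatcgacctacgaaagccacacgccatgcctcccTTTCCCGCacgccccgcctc
Mcm5 and Mcm6 each hold a pair of overlapping matches, 1 on each strand, and Mcm6 holds 3 matches in all. Gins3, Rfc3 and Orc3 each hold 1 match in the stretch shown. Having the letters did not separate the members that passed the expression test described below, since 7 of 23 members with a window that passed (30.4%) and 9 of 20 that did not (45%) held them. The pentamer CCAAT, on both strands, was in 27 of 44 members (61.4%), in 43.1% of tested genes with a window and in 37.4% of all windows. A match is a description of the letters in these windows and shows no binding.

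Expression is given as FPKM, a level per transcript length and per library, in the order of mice 1, 2 and 3 of a group. Differences are of log2(FPKM + 1), BBR minus SASP, so a negative value is a lower level with BBR than with SASP. A gene is said below to have fallen only in this sense, and which of the drugs moved its level was not tested. This scale understates changes of genes near or below 1 FPKM. They were tested with limma over 12072 genes, with p-values adjusted by the Benjamini-Hochberg method and a threshold of 0.05.

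Replication genes were lower with BBR across nearly every complex, and ORC was the main exception. Of the 52 members, 51 passed the filter on low values, and 27 of these passed the threshold, all 27 lower with BBR and 0 higher. Among all tested genes, 8.86% passed in either direction and 5.04% passed as lower with BBR. At an unadjusted limma p under 0.05, 43 members were lower and 0 higher, and 13.4% of all tested genes were lower. The groups did not overlap in 45 of the 52 members, each time with all BBR mice below all SASP mice, which was so for 16.6% of tested genes. The median log2 fold change of the tested members was -0.94, beside 0.10 for all tested genes. A fold change below -1 was seen in 25 members and in 3.41% of tested genes. The filter was passed only through the SASP mice by 4 members (Cdc6, Gins3, Pole and Dna2), whose difference was therefore partly set by it. The calls rested on few animals: with any 1 mouse left out in turn, 2 to 36 members passed, with the lowest number without SASP mouse 1, and 3 without BBR mouse 1 or SASP mouse 3 and 8 without SASP mouse 2. In these fits, 96 to 4051 of all 12072 genes passed. Without SASP mouse 1, 3.92% of tested members passed, beside 1.05% of all tested genes. When the level of smooth muscle genes in each mouse was added to the fit, 0 members passed limma's threshold (smallest adjusted p = 0.0672), while 18 of all 12072 genes (0.149%) did. At an unadjusted p under 0.05 in that fit, 24 members were lower and 0 higher, beside 7.13% of all tested genes that were lower. The median of the members was then -0.73. The smooth muscle level, a mean of log2(FPKM + 1), was 7.29, 7.58 and 8.42 in the BBR mice and 5.62, 7.09 and 6.77 in the SASP mice. It did not overlap between the groups, so this fit cannot separate smooth muscle from the drug.

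**Figure D1:**
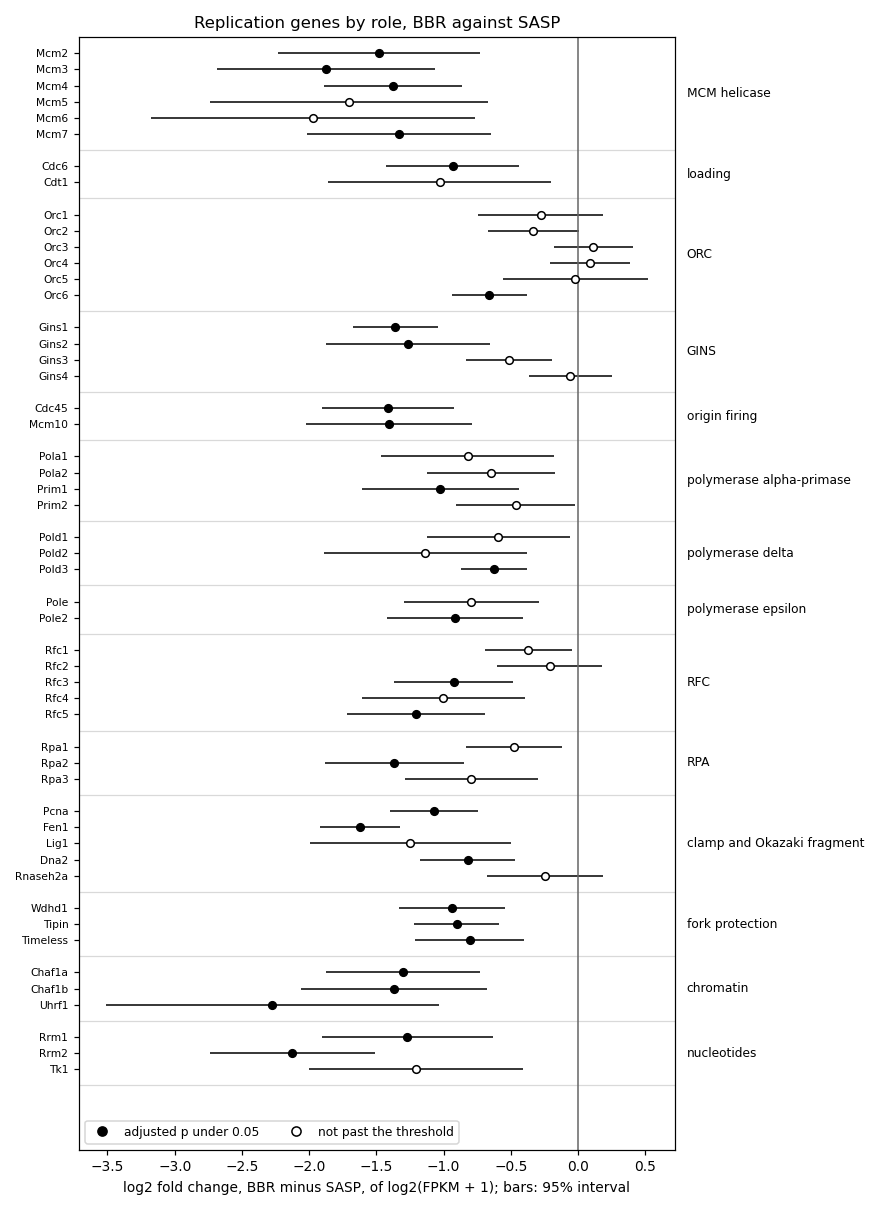
Log2 fold changes of the 51 tested replication genes by role, with BBR minus SASP of log2(FPKM + 1) on the horizontal axis. Points are limma estimates over 3 mice per group, bars are 95% intervals and filled points passed the adjusted threshold of 0.05. All 6 MCM subunits lie between -1.97 and -1.33, while Orc1 to Orc5 lie between -0.33 and 0.11.

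**Figure D2:**
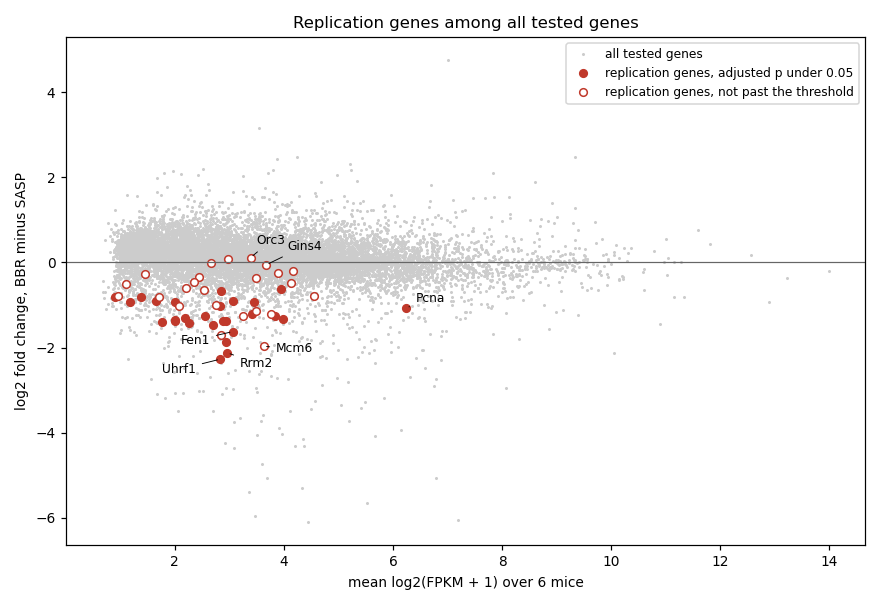
Mean level over the 6 mice (log2(FPKM + 1), horizontal) against the log2 fold change, BBR minus SASP (vertical), for the 12072 tested genes in grey and the 51 tested replication genes in red, filled where they passed the threshold. Of the replication genes, 49 lie below 0, and Pcna has the highest mean level.

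The MCM helicase had the lowest median of the 6 core complexes, at -1.59, and all 6 subunits separated the groups. Mcm2 was at 2.88, 5.24 and 1.45 FPKM in BBR mice 1, 2 and 3 and at 9.03, 10.6 and 10.03 FPKM in the SASP mice. For Mcm3 the levels were 3.15, 5.45 and 1.36 FPKM with BBR and 11.6, 14.65 and 14.8 FPKM with SASP. For Mcm4 they were 3.8, 5.43 and 2.55 FPKM and 10.6, 11.9 and 11.9 FPKM. In these subunits BBR mouse 3 was lowest and BBR mouse 2 was closest to the SASP mice, and no groups overlapped. Mcm5 was at 3.31, 6.51 and 0.98 FPKM with BBR and at 11.2, 12.8 and 12.1 FPKM with SASP. Mcm6, the most variable of the subunits with BBR, was at 6.24, 11.6 and 1.67 FPKM against 20.7, 23.6 and 26.5 FPKM. Mcm7, which had the highest mean level of the 6 in both groups, was at 10.3, 13.2 and 5.3 FPKM against 21.2, 27.6 and 24.3 FPKM. Across the subunits the SASP mean was 2.54 to 4.12 times the BBR mean.

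Mcm3 was lower with BBR than with SASP by 1.87 on the log2 scale (SE 0.34, limma adjusted p = 0.0260). Mcm4 fell by 1.38 (SE 0.22, limma adjusted p = 0.0186), Mcm2 by 1.48 (limma adjusted p = 0.0385) and Mcm7 by 1.33 (limma adjusted p = 0.0397). Mcm5 and Mcm6 had larger differences than Mcm7 but also larger standard errors, and did not pass. Their log2 fold changes were -1.703 (SE 0.44, limma adjusted p = 0.0573) and -1.97 (SE 0.51, limma adjusted p = 0.0585). The subunits form 1 ring, and their levels within a mouse spread by 2.35 to 2.64 times between the highest and the lowest subunit with SASP, and by 3.58, 2.52 and 5.41 times in BBR mice 1, 2 and 3.

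The loading factors were scarcer than the ring they load. Cdc6, an ATPase that works with ORC, was at 0.60, 0.98 and 0.40 FPKM with BBR and at 1.46, 2.5 and 2.59 FPKM with SASP, and it fell by 0.93 on the log2 scale (limma adjusted p = 0.0428). It was under 1 FPKM in every BBR mouse. Cdt1, which brings the MCM ring to the origin and is removed once S phase starts, was at 2.52, 3.39 and 0.65 FPKM against 4.24, 5.46 and 5.4 FPKM. Its groups did not overlap, but the log2 fold change of -1.03 did not pass (95% interval -1.86 to -0.20, limma adjusted p = 0.1004).

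In ORC, the complex that marks origins and has tasks outside S phase too, 1 of 6 subunits passed, and the median log2 fold change was -0.15. Orc6, the smallest and most loosely held subunit, was at 4.57, 4.96 and 4.64 FPKM with BBR and 7.36, 8.74 and 8.1 FPKM with SASP, with little spread in either group. It fell by 0.66 (SE 0.12, limma adjusted p = 0.0247), the smallest log2 change among the called members other than Pold3. Orc2 was at 3.66, 4.05 and 3.84 FPKM against 4.3, 6.04 and 5.09 FPKM. These groups did not overlap, but the log2 fold change was -0.33 and its 95% interval, -0.67 to 0.0089, reached just past 0 (limma adjusted p = 0.165).

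The other 4 ORC subunits overlapped between the groups. Orc1, the subunit whose level changes with the cell cycle, was at 1.91, 1.75 and 0.91 FPKM with BBR and at 1.82, 2.36 and 1.88 FPKM with SASP, so that BBR mouse 1 lay among the SASP mice and BBR mouse 3 well below them. Orc3 was at 10.95, 9.61 and 9.24 FPKM against 8.7, 10.2 and 8.44 FPKM, and Orc4 was at 7.62, 7.47 and 6.36 FPKM against 6.81, 7.1 and 6.06 FPKM. In both, the BBR mean was slightly above the SASP mean, with log2 fold changes of 0.11 (95% interval -0.18 to 0.41) and 0.09 (-0.21 to 0.39), although both turned to slightly below 0 when libraries were scaled by median ratios. Orc5 was at 6.49, 6.59 and 3.35 FPKM against 5.17, 5.5 and 5.44 FPKM, where BBR mouse 3 alone was below the SASP mice and the other 2 were above them. Its log2 fold change was -0.02 (95% interval -0.56 to 0.52), and that of Orc1 was -0.28 (-0.74 to 0.18). The intervals of Orc3 and Orc4 exclude a decrease of the size estimated for any MCM subunit, and that of Orc5, which reaches -0.56, does so too.

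**Figure D3:**
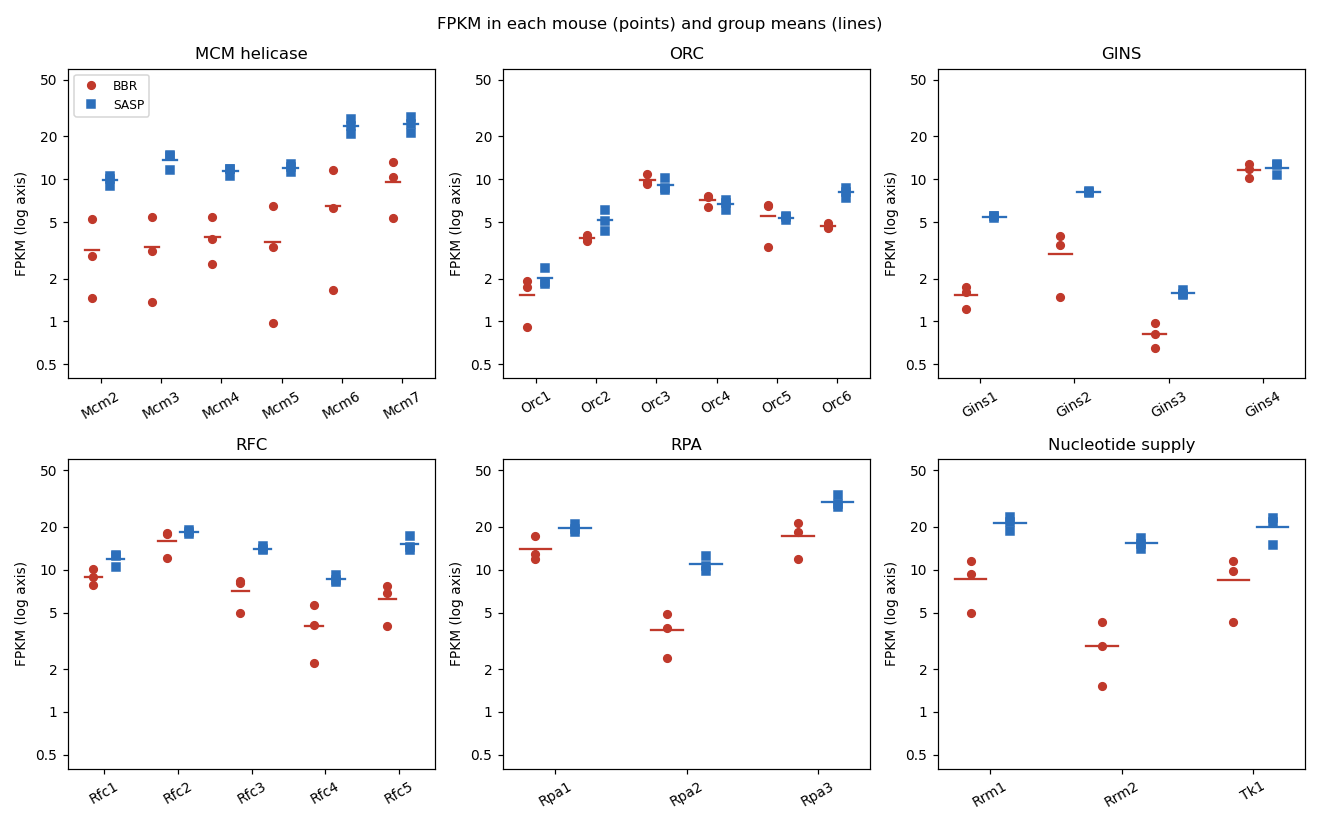
FPKM in each mouse (vertical log axis) for the subunits of the MCM, ORC, GINS, RFC and RPA complexes and for the genes of nucleotide supply, with BBR mice as red circles, SASP mice as blue squares and a line at each group mean. All BBR mice lie below all SASP mice in the 6 MCM subunits, whereas the groups overlap in Orc1, Orc3, Orc4, Orc5, Gins4 and Rfc2.

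The balance within each mouse between the MCM genes and Orc2 to Orc5 also differed between the groups. The geometric mean of Mcm2 to Mcm7 was 0.661, 1.11 and 0.358 times that of Orc2 to Orc5 in the BBR mice, and 2.203, 2.251 and 2.525 times in the SASP mice. This ratio, which leaves out Orc1 and Orc6 (log2 fold changes -0.28 and -0.66), was chosen after the values had been seen and was not tested. Its numerator was 4.41, 7.32 and 1.88 FPKM with BBR and 13.3, 15.8 and 15.5 FPKM with SASP, while its denominator was 6.67, 6.62 and 5.24 FPKM with BBR and 6.02, 7.003 and 6.14 FPKM with SASP. The ratio separated the groups through its numerator, since the denominators overlapped.

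The helicase activators differed among themselves. GINS is a complex of 4 proteins, of whose RNAs 2 passed the threshold. Gins1 was at 1.6, 1.75 and 1.22 FPKM with BBR and at 5.31, 5.47 and 5.55 FPKM with SASP, tight in both groups, and it fell by 1.36 (SE 0.13, limma adjusted p = 0.00529). Gins2 was at 3.42, 3.98 and 1.48 FPKM against 8.3, 8.08 and 7.98 FPKM and fell by 1.26 on the log2 scale (SE 0.26, limma adjusted p = 0.0351). Gins3, the scarcest of the 4, was at 0.81, 0.98 and 0.65 FPKM against 1.55, 1.66 and 1.54 FPKM. Its groups did not overlap, and the log2 fold change was -0.51 (limma adjusted p = 0.0596). Gins4 stood apart, at 11.8, 12.8 and 10.2 FPKM with BBR and 12.6, 12.8 and 10.8 FPKM with SASP. Its groups overlapped, its log2 fold change was -0.06 (95% interval -0.36 to 0.25) and its level was the highest of the 4 in every mouse.

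Among the origin firing factors, Cdc45, which joins the MCM ring together with GINS, was at 2.33, 2.57 and 1.16 FPKM with BBR and at 7.35, 6.59 and 6.65 FPKM with SASP. Mcm10, a helicase activator that is no subunit of the MCM ring despite its name, was at 1.21, 1.93 and 0.41 FPKM against 4.79, 4.59 and 4.26 FPKM. Both separated the groups and both fell by 1.41 on the log2 scale (limma adjusted p = 0.0161 and 0.0267). Ticrr, also known as Treslin, which recruits Cdc45, was below the filter and was not tested. It was listed at 0.39, 0.46 and 0.09 FPKM with BBR and at 1.11, 1.01 and 0.72 FPKM with SASP, again without overlap.

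All 9 polymerase and primase subunits had BBR mice below SASP mice, and 3 of the 9 passed the threshold, with a median log2 fold change of -0.80. Polymerase alpha and its primase lay the RNA-DNA primers of both strands. Their catalytic primase subunit, Prim1, was at 4.36, 5.75 and 2.41 FPKM with BBR and at 8.7, 9.85 and 8.86 FPKM with SASP and fell by 1.02 (limma adjusted p = 0.0489). The other primase subunit, Prim2, was at 3.61, 4.28 and 2.39 FPKM against 5.43, 5.06 and 4.56 FPKM, with the smallest log2 difference of the 9, -0.46 (limma adjusted p = 0.143). Pola1, the polymerase subunit itself, was at 1.46, 2.6 and 0.69 FPKM against 3.54, 3.68 and 2.89 FPKM. Pola2, its accessory subunit, was at 3.11, 5.34 and 2.9 FPKM against 5.99, 6.29 and 6.65 FPKM. Neither passed (log2 fold changes -0.82 and -0.65, limma adjusted p = 0.0948 and 0.0838), and in both BBR mouse 2 lay close to the lowest SASP mouse.

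Polymerase delta copies the lagging strand. Its accessory subunit Pold3 was at 11.4, 11.4 and 11.6 FPKM with BBR and at 19.1, 16.7 and 18.98 FPKM with SASP, the most even of all members among the BBR mice in FPKM relative to the mean, and it fell by 0.62 (SE 0.10, limma adjusted p = 0.0205). The catalytic subunit Pold1 was at 2.98, 3.98 and 1.7 FPKM against 4.64, 4.64 and 4.77 FPKM. The second subunit, Pold2, was at 6.71, 10.99 and 3.63 FPKM against 16.15, 14.1 and 16.6 FPKM. Pold2 had the larger log2 difference of these, -1.14 (limma adjusted p = 0.0671), beside -0.59 for Pold1 (limma adjusted p = 0.127), and both varied more with BBR than with SASP. Polymerase epsilon copies the leading strand. Its accessory subunit Pole2 was at 1.49, 1.89 and 0.69 FPKM against 3.21, 3.61 and 3.2 FPKM and fell by 0.91 on the log2 scale (limma adjusted p = 0.0455). The catalytic subunit Pole was at 0.48, 0.93 and 0.12 FPKM against 1.54, 1.69 and 1.45 FPKM, under 1 FPKM in every BBR mouse, and its log2 fold change was -0.796 (limma adjusted p = 0.0614).

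RFC opens the PCNA ring and places it on DNA, and its 5 subunits ranged from clearly lower to nearly equal. Rfc5 was at 6.87, 7.63 and 4.05 FPKM with BBR and at 17.4, 14.5 and 13.7 FPKM with SASP, and Rfc3 was at 8.32, 8.06 and 4.94 FPKM against 13.7, 13.96 and 14.6 FPKM. Both are small subunits, and they fell by 1.205 and 0.92 on the log2 scale (limma adjusted p = 0.0254 and 0.0346). Rfc4 was at 4.09, 5.69 and 2.22 FPKM against 8.41, 9.12 and 8.23 FPKM, without overlap, and missed the threshold at -1.001 (limma adjusted p = 0.0580). The large subunit Rfc1, found only in the replicative clamp loader, was at 8.91, 10.1 and 7.79 FPKM against 10.4, 12.5 and 12.6 FPKM. Here BBR mouse 2 was just below SASP mouse 1, and the log2 fold change was -0.37 (limma adjusted p = 0.119). Rfc2 was at 17.9, 18.2 and 12.01 FPKM against 18.4, 17.9 and 19.1 FPKM, so that BBR mice 1 and 2 lay within the range of the SASP mice and BBR mouse 3 below it. Its log2 fold change was -0.21 (95% interval -0.60 to 0.18).

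RPA, which coats single-stranded DNA in replication and repair, is made of 3 subunits in equal numbers, but their RNAs did not differ equally. Rpa2 was at 3.92, 4.92 and 2.39 FPKM with BBR and at 10.7, 9.76 and 12.4 FPKM with SASP and fell by 1.37 (SE 0.22, limma adjusted p = 0.0192). Rpa3, the smallest, was at 18.45, 21.45 and 11.99 FPKM against 33.7, 28.99 and 27.45 FPKM, and Rpa1, the largest, was at 12.8, 17.2 and 11.9 FPKM against 18.55, 20.9 and 19.5 FPKM. The groups did not overlap in any of them. The log2 fold changes of Rpa3 and Rpa1 were -0.795 and -0.48 and did not pass (limma adjusted p = 0.0599 and 0.0852).

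The sliding clamp was the most abundant member. Pcna was at 49.4, 61.9 and 43.9 FPKM with BBR and at 111, 104 and 111 FPKM with SASP, a 2.10-fold difference of means, and it fell by 1.07 on the log2 scale (SE 0.14, limma adjusted p = 0.0111). In the GENCODE M21 annotation, 2 pseudogenes are named for it. Pseudogenes under other names were not counted, and how reads were shared with pseudogenes was not tested. PCNA holds the enzymes that join Okazaki fragments, the short pieces of the lagging strand. Fen1, the nuclease that removes primer flaps, was at 3.62, 4.28 and 3.44 FPKM against 14.7, 13.8 and 12.6 FPKM and had the smallest p-value of the members (log2 fold change -1.62, limma adjusted p = 0.00190). Dna2, which cuts long flaps, was at 0.55, 0.49 and 0.23 FPKM against 1.35, 1.64 and 1.53 FPKM and fell by 0.82 (limma adjusted p = 0.0256), although it was under 1 FPKM in every BBR mouse. Lig1, the ligase that seals the nick, was at 5.0, 9.08 and 2.93 FPKM against 13.7, 14.55 and 12.96 FPKM and did not pass (-1.25, limma adjusted p = 0.0554). Rnaseh2a, the catalytic subunit of an RNase that also clears ribonucleotides outside replication, was at 13.3, 15.85 and 9.35 FPKM against 15.6, 14.7 and 14.99 FPKM. It was the only member of these 5 whose groups overlapped, with a log2 fold change of -0.25 (95% interval -0.68 to 0.19).

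All 3 genes listed for fork protection passed. Timeless and Tipin form a pair that travels with the fork, and Wdhd1 links the helicase to polymerase alpha. Tipin was at 5.17, 5.92 and 4.34 FPKM with BBR and at 9.96, 10.8 and 10.5 FPKM with SASP, Wdhd1 at 1.91, 2.48 and 1.44 FPKM against 4.79, 4.11 and 4.89 FPKM. Timeless was at 0.95, 1.4 and 0.65 FPKM against 2.35, 2.72 and 2.32 FPKM. They separated the groups and fell by 0.90, 0.94 and 0.81 on the log2 scale, in that order (limma adjusted p = 0.0163, 0.0247 and 0.0385).

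The chromatin genes also passed in 3 of 3 cases. Chaf1a and Chaf1b encode the subunits of CAF-1 that place new histones behind the fork, and Uhrf1 brings the maintenance methyltransferase to newly copied DNA. Chaf1a was at 1.68, 3.2 and 1.19 FPKM with BBR and at 6.55, 6.42 and 5.64 FPKM with SASP, and Chaf1b was at 1.68, 2.57 and 0.61 FPKM against 4.52, 6.29 and 5.55 FPKM. They fell by 1.31 and 1.37 on the log2 scale (limma adjusted p = 0.0267 and 0.0385). Uhrf1 was at 2.82, 5.62 and 0.36 FPKM against 12.6, 15.6 and 16.2 FPKM, and its BBR values spanned the widest range of any member in relative terms. Its log2 fold change, -2.27 (SE 0.52, limma adjusted p = 0.0446), was the lowest of the 51.

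The genes that supply nucleotides held the second lowest value. Ribonucleotide reductase makes deoxyribonucleotides from a large subunit, Rrm1, and a small subunit, Rrm2, whose level is tied to S phase. Rrm2 was at 2.91, 4.27 and 1.53 FPKM with BBR and at 16.7, 15.2 and 14.04 FPKM with SASP, 5.28 times as high in the mean with SASP (log2 fold change -2.12, SE 0.26, limma adjusted p = 0.00964). Rrm1 was at 9.3, 11.5 and 4.98 FPKM against 23.5, 21.5 and 18.6 FPKM and fell by 1.27 (limma adjusted p = 0.0376). Tk1, the thymidine kinase of dividing cells, was at 9.72, 11.5 and 4.26 FPKM against 23.1, 21.7 and 14.9 FPKM. Its groups did not overlap, but SASP mouse 3 was lower than the other SASP mice, and the log2 fold change of -1.21 did not pass (limma adjusted p = 0.0669).

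In the replication genes, BBR mice differed from each other more than SASP mice did, and mostly in 1 order. BBR mouse 3 was the lowest of the 3 BBR mice in 49 of 52 members (94.2%), as in 61.8% of all tested genes, and BBR mouse 2 was the highest in 46 (88.5%), as in 47.8% of tested genes. The median standard deviation of log2(FPKM + 1) over members was 0.396 with BBR and 0.104 with SASP, beside 0.220 and 0.126 over all tested genes. It was larger with BBR than with SASP in 47 members (90.4%), and in 71.9% of tested genes. Measured against the SASP mean of each gene, the median member was at -0.90, -0.62 and -1.35 on the log2 scale in BBR mice 1, 2 and 3. For MCM the medians were -1.54, -0.89 and -2.39. For Orc2 to Orc5 they were 0.20, 0.11 and -0.19, and for all tested genes 0.13, 0.18 and -0.04. So each BBR mouse had a low median of members, including mouse 2, which stood nearest to SASP.

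**Figure D4:**
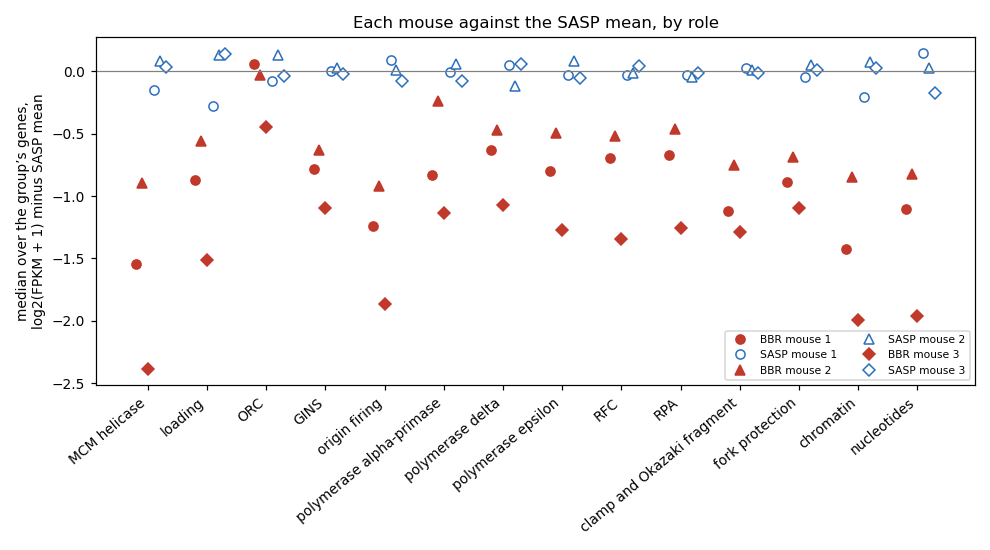
Median over the genes of each role of the difference from the SASP mean (vertical axis, log2(FPKM + 1) scale), for each BBR mouse (red, filled) and each SASP mouse (blue, open). For the MCM helicase the BBR mice lie at -1.54, -0.89 and -2.39, BBR mouse 3 is lowest in every role, and for ORC BBR mice 1 and 2 lie at 0.06 and -0.03.

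Genes of the same pathway outside the 52 were listed separately: 55 further replication, nucleotide and S-phase genes, of which 54 were tested. Of these, 17 passed limma's threshold as lower with BBR and 0 as higher (1 higher at an unadjusted p under 0.05, Tk2), and 37 did not pass, with a median log2 fold change of -0.57. Of the 17, Dscc1 had passed the filter on low values only through the SASP mice. The 17 included 11 of 34 replication genes, 1 of 9 nucleotide genes and 5 of 11 tested S-phase regulators. The 6 with the smallest p-values span these roles. Tfdp1, a partner with which many E2F factors bind DNA, was at 18.1, 20.2 and 18.1 FPKM with BBR and at 37.2, 36.3 and 37.7 FPKM with SASP (log2 fold change -0.94, limma adjusted p = 0.00546). Ccne1 encodes cyclin E1, which drives entry into S phase, and was at 0.75, 1.19 and 0.98 FPKM against 3.77, 4.79 and 4.25 FPKM (-1.42, limma adjusted p = 0.00644). Its relative Ccne2 was at 1.2, 1.66 and 1.11 FPKM against 3.52, 4.26 and 4.26 FPKM (-1.11, limma adjusted p = 0.0132). None of these overlapped between groups.

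Nasp and Asf1b are chaperones that carry histones to new DNA. Nasp was at 13.9, 15.6 and 12.8 FPKM with BBR and at 25.4, 26.3 and 27.04 FPKM with SASP (log2 fold change -0.86, limma adjusted p = 0.0103). Asf1b was at 2.77, 2.92 and 1.0 FPKM against 11.4, 10.8 and 8.14 FPKM (-1.83, limma adjusted p = 0.01799). Samhd1 breaks deoxyribonucleotides down rather than making them, and it is also known as a gene that interferon raises. It was at 55.4, 45.1 and 34.6 FPKM with BBR and at 242, 113 and 244 FPKM with SASP (-2.07, limma adjusted p = 0.0186).

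Marker genes of cycling cells and of some other cell types differed between the same groups. Of 10 genes of mitosis, 5 passed as lower with BBR and 0 as higher (median -1.17), and their summed level was 43.7 to 86.8 FPKM with BBR and 98.1 to 193 FPKM with SASP. Smooth muscle genes had positive log2 fold changes in 11 of 11 cases (median 1.28), with summed levels of 3264, 3537 and 7561 FPKM in BBR mice 1, 2 and 3 and 906, 2702 and 2024 FPKM in the SASP mice. Of these genes, 7 separated the groups, 0 of 11 passed the limma threshold and 9 had an unadjusted p under 0.05. BBR mouse 3, with the highest smooth muscle sum, was the lowest BBR mouse in 94.2% of members and in 61.8% of tested genes. BBR mouse 2 had a higher smooth muscle sum than BBR mouse 1. It was the highest BBR mouse in 46 of the 52 members (88.5%) and in 47.85% of tested genes. SASP mouse 1, with the lowest sum, was the lowest SASP mouse in 22 of the 52 (42.3%) and in 47.2% of tested genes. Whether these orders are related to smooth muscle was not tested. Of 8 fibroblast genes, 4 passed as higher with BBR, and their sum was 270 to 361 FPKM against 123 to 215 FPKM. The 12 leukocyte genes summed to 17.8 to 21.6 FPKM with BBR and to 43.0 to 60.4 FPKM with SASP, where 1 of 6 tested (S100a8, listed at 0 in BBR mice 1 and 2) passed as lower. The 4 endothelial genes summed to 11.2 to 22.7 FPKM against 6.04 to 8.78 FPKM, and 0 of 4 passed in limma (2 at an unadjusted p under 0.05). The part of these cells in the differences of the replication genes was not tested. The fit with smooth muscle level given above cannot separate that level from the drug.

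Other lists overlapped between the groups. The 12 genes of colon epithelium, which mark the labelled tissue, summed to 9580 to 11840 FPKM with BBR and 9458 to 9631 FPKM with SASP, with 1 passing as lower and 2 as higher. Crypt stem cell genes summed to 24.9 to 38.1 FPKM with BBR and 25.2 to 29.3 FPKM with SASP (0 lower and 1 higher of 6 tested). Germinal centre B cell genes summed to 9.22 to 13.1 FPKM against 9.31 to 12.4 FPKM, and 0 of 3 tested passed in limma (0 also at an unadjusted p under 0.05). Enteric neuron genes summed to 14.8 to 53.5 FPKM against 10.1 to 22.9 FPKM, and 0 of 4 passed (0 also unadjusted). Genes of squamous epithelium, which lines the anal canal, summed to 0.37 to 2.39 FPKM and 0.93 to 1.30 FPKM, and 0 of 6 reached the filter. Krt4 was at 0 in all mice but 1.

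Library totals bear on the scarcest members. The sum of FPKM was 461163 to 487054 per mouse, and 11518 to 12307 genes reached 1 FPKM. Read totals were not analysed here, and depth was estimated at 16400000 to 18200000 reads from genes seen once, which is approximate. On this estimate 3 of the 52 members had under 20 reads in some mouse, the smallest number was 11, and no member was at 0 in any mouse. Exons of 22 members overlap those of another gene in the GENCODE M21 annotation, and whether the counting used strand is not given in the sources used here, so reads of such neighbours may be mixed. This holds for 5 of the 7 members whose groups overlapped and for 17 of the 45 whose groups did not.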

How the data were processed

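RNA sequencing of colorectal tissue from 6 mice with DSS colitis, 3 given BBR and 3 given SASP, was analysed from 1 deposited table of FPKM values. Groups came from the treatment labels, replicate numbers follow accession order and pair no mice, and the labels do not state that each sample is 1 animal, so p-values measure the spread between these samples. The members and lists were chosen with earlier results of these data known.

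According to the study's methods, the authors depleted ribosomal RNA, sequenced single-end reads from DNA nanoballs and filtered them with SOAPnuke, while the labels name an Illumina kit. The submitters' processing notes list Bowtie2 2.2.5, RSEM 1.2.12 and mm9, without roles. The authors deposited FPKM per gene with NCBI Gene IDs, rounded to 2 decimals. RSEM divides reads shared by similar genes, and no count model was used. Sources name the tissue as rectal, colon or colorectal.

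Here, genes with FPKM of at least 1 in at least 3 samples (12072 of 18268) were fitted as log2(FPKM + 1) with limma 3.58.1 (R 4.3.3), with a mean-variance trend, two-sided, Benjamini-Hochberg adjusted, threshold 0.05. An exact permutation test of 3 against 3 cannot give p below 0.10 and was not used. The step was tested on simulated data, with changes larger than those estimated for most members. That test does not show how well changes of the members' size are found. All members were named by role, with per-mouse values for those that passed and for the MCM, ORC, GINS, polymerase, RFC and RPA genes, and the 6 other pathway genes with the smallest p. Promoter windows came from RefSeq (GRCm38.p6) and were searched by gene symbol. Exon overlaps were taken from coordinates of GENCODE M21. Because the table was made on mm9, neither annotation need match its gene models. Depth was estimated from genes under 1500 bases seen in 1 sample. Alternatives were other pseudocounts, filters, scalings and limma settings, a smooth muscle covariate, and each mouse left out.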

Additional observations from a re-analysis of the deposited data

How the results depend on the processing

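With 1 mouse left out in turn, 2 to 36 members, 96 to 4051 of all tested genes and 2 to 30 of the other pathway genes passed (27, 1069 and 17 with all mice), and the members' median stayed between -1.10 and -0.75. Members numbered 3 without BBR mouse 1, 27 without BBR mouse 2, 36 without BBR mouse 3, 2 without SASP mouse 1, 8 without SASP mouse 2 and 3 without SASP mouse 3, with 133, 376, 4051, 127, 522 and 96 of all genes in that order. Fen1 and Gins1 passed in all 6 of these fits, Rrm2 in 5, and the other 24 in 1 to 3. In the same order of members, all genes and other pathway genes, 13, 608 and 9 passed without the filter on low values, 42, 1737 and 28 after quantile normalization, 41, 1683 and 29 after scaling by median ratios, 46, 7126 and 44 with array weights, 0, 18 and 0 with the smooth muscle covariate, 43, 3837 and 32 at an unadjusted p of at most 0.05, and 3, 109 and 2 at an adjusted p under 0.01. With a mean of at least 5 FPKM, 16 of 33 tested members (48.5%) and 10 of 30 other pathway genes (33.3%) passed. Of all genes tested in that fit, 801 of 8392 (9.54%) passed. Pseudocounts of 0.1 and 0.01 lowered the members' median to -1.27 and -1.32. Of all genes passing, 608 were lower and 461 higher as reported, 1184 and 499 with median-ratio scaling, which moved the median of all genes from 0.10 to -0.02, and 2490 and 4636 with array weights, under which 44 members passed as lower and 2, Orc3 and Orc4, as higher. Of the other pathway genes passing, 38 were lower and 6 higher with array weights, and 28 and 2 without BBR mouse 3. At an unadjusted limma p of at most 0.05, 31 of them were lower and 1 higher. The sign turned with median-ratio scaling for Orc3 (-0.0077) and Orc4 (-0.029). It turned for Orc5 and Gins4 with array weights (0.21 and 0.075), the smooth muscle covariate (0.29 and 0.073) and without BBR mouse 3 (0.24 and 0.027; with 1 mouse left out, -0.16 to 0.24 for Orc5 and -0.13 to 0.027 for Gins4), and for Rfc2 (0.033) and Rnaseh2a (0.028) with that covariate. The cause was not tested. A filter on a mean of at least 1 FPKM, chosen after seeing the data, left 25 members. No paired analysis was possible because the labels give the mice no shared numbers. Low FPKM values of scarce members limit the precision of their folds.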
